A study of Homo sapiens with 6 samples.

Results

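ATP-binding cassette (ABC) transporters are membrane proteins that use ATP to move lipids, bile constituents, drugs and metabolites, and the same gene symbols also cover a few soluble ribosome-associated proteins. Members were chosen by gene symbol alone, from the ABCA to ABCG subfamilies, which gave 41 of the 20026 genes in the deposited table: 12 ABCA, 8 ABCB, 10 ABCC, 4 ABCD, 1 ABCE, 3 ABCF and 3 ABCG genes. The rule itself used no measured value. The pseudogenes ABCA17P and ABCC6P1 were outside the rule. ABCB11, ABCG1, ABCG4 and ABCC12 would match the rule, but no row carried these symbols, so they were not analysed here.

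The libraries came from the human liver cancer line HepG2, as a scramble control (Scr, genotype WT in the labels), a CRISPR/Cas9 knockout of miR-23a (miR-23a KO) and a CRISPR/Cas9 knockout of miR-27a (miR-27a KO), with 2 libraries in each group. The knockout lines were derived from single cells, and the labels do not say which clone gave which library or whether libraries came from separate cultures. The cell-type wording of the labels and the design text of the series do not match the sample titles, so the titles were followed. Transcripts of the edited miRNA loci are not analysed here, and the group labels were not checked against the counts.

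Sequencing depth was even, with total counts of 14891239 and 14405250 (Scr), 15850589 and 15947308 (miR-27a KO), and 16515261 and 15930779 (miR-23a KO). Levels are given as CPM, the edgeR counts scaled to library size, after trimmed-mean scaling, in the order Scr 1, Scr 2, miR-23a KO 1, miR-23a KO 2, miR-27a KO 1, miR-27a KO 2. A level of 3 counts, taken here as the floor for calling a gene seen, equalled 0.209, 0.203, 0.228, 0.162, 0.182 and 0.181 CPM in that order. A fold change is a log2 value from the edgeR quasi-likelihood fit, and a gene was called when its Benjamini-Hochberg adjusted p was under 0.05 and its fold over 1.5.

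In hepatocytes, ABC proteins of the canalicular membrane secrete bile salts, phospholipid, sterol and conjugated organic anions, and other members export cholesterol to lipoproteins or pump drugs out across the basolateral membrane. Several ABCB half-transporters serve mitochondria or lysosomes, ABCD3 imports fatty acids into peroxisomes, and ABCE1 and the ABCF proteins act on ribosomes. A miRNA lowers the level or translation of messages that carry a match to its seed, the bases near its 5' end.

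The mature miR-23a-3p is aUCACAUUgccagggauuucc (chr19:13836595-13836615, minus strand, GRCh38.p14) and the mature miR-27a-3p is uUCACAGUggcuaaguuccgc (chr19:13836447-13836467, minus strand, GRCh38.p14), with the seed in capitals. A 3' untranslated region match to the miR-23a seed was present in 5 members (among them ABCA1, ABCA10 and ABCC4), and a match to the miR-27a seed in 7 (ABCA1, ABCA3, ABCA12, ABCB9, ABCC4, ABCD3 and ABCG8). Among 15916 annotated genes, 19.3% had a miR-23a match and 16.7% a miR-27a match. ABCA1 and ABCC4 carried matches to both.

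Of the 41 members, 30 had at least 10 counts in every library and 26 had at least 100. ABCA9 had 0 counts in every library, and 9 members stayed under 10 counts in every library: ABCA6, ABCA8, ABCA9, ABCA12, ABCA13, ABCB5, ABCC8, ABCC9 and ABCD2. ABCA6, ABCA8 and ABCA9 lie side by side with ABCA10 and ABCA5 on chromosome 17, and ABCA10 and ABCA5 were the only genes of that cluster to reach 10 counts in any library. The summed level of the family was 1808 and 1789 CPM for Scr, 1831 and 1793 CPM for miR-23a KO, and 1724 and 1674 CPM for miR-27a KO.

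**Figure D1:**
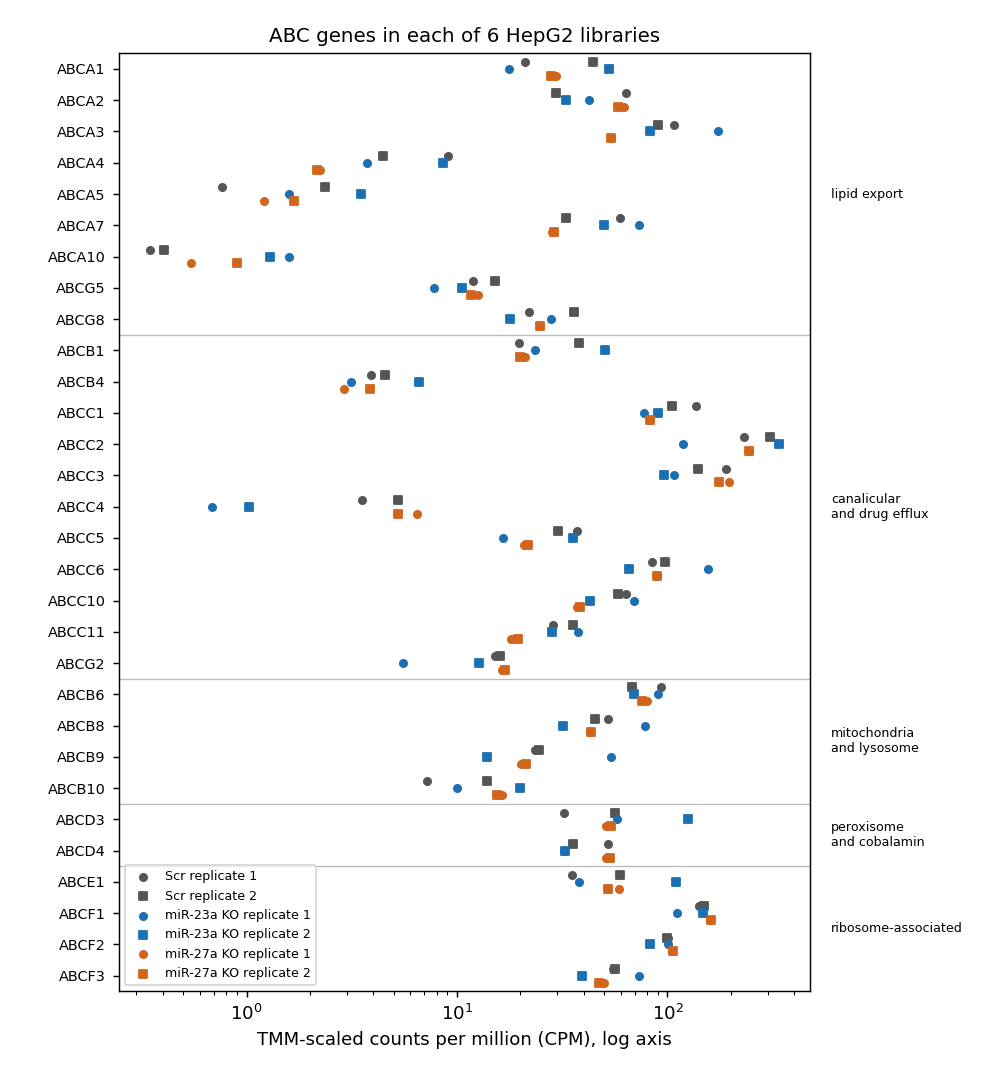
Level of 30 tested ABC members in each library, in CPM. Points are single libraries and members are grouped by role.

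Divided by transcript length, the most abundant member in Scr was ABCC2, the canalicular exporter of conjugated organic anions, at 46.2 CPM per kilobase (SD 9.11 over 2 libraries). It was followed by the translation factor ABCF1 at 41.6 and the basolateral exporter ABCC3 at 28.9 CPM per kilobase. In miR-27a KO the same 3 members led, in the order ABCF1 (45.9), ABCC2 (42.0) and ABCC3 (32.5). In miR-23a KO, ABCC2 stood at 39.3 (SD 26.7) and ABCF1 at 37.1 CPM per kilobase.

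The spread between replicate libraries differed by group. Among the 30 members with at least 10 counts in every library, the 2 libraries of a group were more than 2-fold apart for 13 members under miR-23a KO, 3 in the control and 0 under miR-27a KO. The median absolute log2 ratio between replicates was 0.94 (miR-23a KO), 0.35 (Scr) and 0.07 (miR-27a KO), beside 0.89, 0.24 and 0.08 over 11817 genes. Across the members this replicate ratio followed the GC content of the transcript, with Pearson correlations of -0.827 (miR-23a KO), -0.723 (Scr) and -0.33 (miR-27a KO) over 30 members that share the same library pairs, beside -0.699, -0.457 and -0.0675 over all 11817 genes. GC-rich members such as ABCB8 and ABCB9 were higher in library 1 of miR-23a KO, and AT-rich members such as ABCD3 and ABCE1 higher in library 2.

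**Figure D2:**
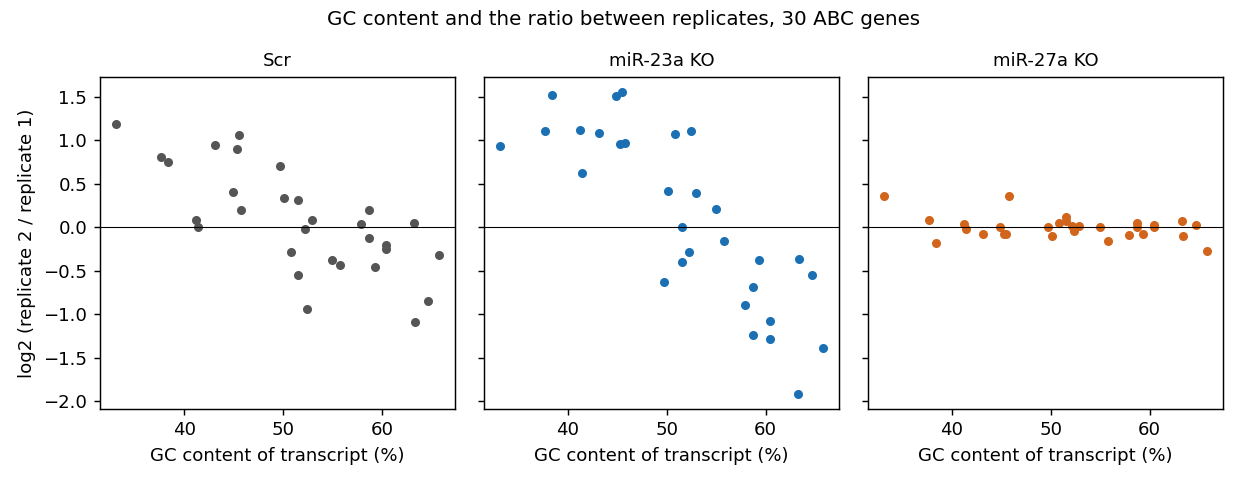
Log2 ratio of replicate 2 to replicate 1 against transcript GC content in each group. Points are the 30 members with at least 10 counts in every library.

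In miR-27a KO against Scr, 31 members passed the expression filter, and the edgeR quasi-likelihood test with Benjamini-Hochberg adjustment called 0 higher and 4 lower (12.9% of 31). Over all 13820 genes tested, 3.52% were called higher and 6.74% lower. The median log2 fold change was -0.14 over the members and 0.01 over all genes tested. The member median moved to -0.03 with GC content and length offsets and to 0.04 without Scr replicate 2, so its sign turned. Both knockout libraries lay above both Scr libraries for 6 members (32.4% of all genes tested) and below both for 11 members (31.9% of all genes tested).

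ABCA3, a lamellar-body phospholipid transporter, measured 107.55, 90.5, 174.4, 82.4, 53.7 and 53.9 CPM. Both miR-27a KO libraries were below both Scr libraries, with no overlap, while the miR-23a KO libraries lay on either side of them. ABCA3 fell in miR-27a KO by 0.88 log2 units (SE 0.11, edgeR quasi-likelihood adjusted p = 0.0142). ABCA3 carries a miR-27a seed match, agctgctgACTGTGAttaggtgc (chr16:2276165-2276187, minus strand, GRCh38).

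ABCC10, a broad-range drug exporter, measured 63.4, 58.3, 69.4, 42.8, 37.1 and 38.5 CPM, and ABCC11, an exporter of cyclic nucleotides and steroid conjugates, measured 28.5, 35.4, 37.7, 28.4, 18.001 and 19.6 CPM. For both genes the miR-27a KO libraries were the lowest of all 6. The edgeR quasi-likelihood test gave a fall of ABCC10 by 0.69 (SE 0.10, adjusted p = 0.0183) and of ABCC11 by 0.77 (SE 0.16, adjusted p = 0.0379). ABCC5, another exporter of cyclic nucleotides, measured 37.2, 30.3, 16.6, 35.4, 20.8 and 21.6 CPM. Its miR-27a KO libraries were below both Scr libraries, but 1 miR-23a KO library was lower still. ABCC5 fell by 0.67 in miR-27a KO (SE 0.15, edgeR quasi-likelihood adjusted p = 0.0439). ABCC5, ABCC10 and ABCC11 carried no miR-27a seed match.

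**Figure D3:**
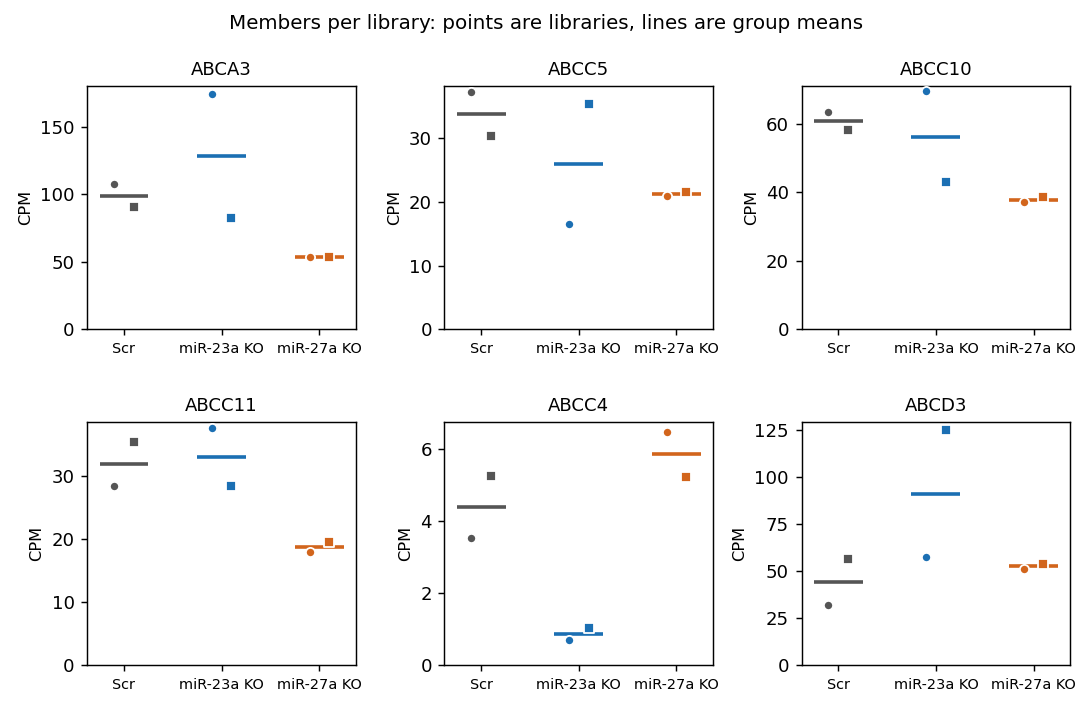
Single-library levels of members named in the text, by group.

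Other members came close to a call in miR-27a KO without reaching it. The conjugate exporter ABCC1 measured 136.2, 105.0, 77.5, 90.0, 82.9 and 83.0 CPM, so that every knockout library of either kind lay below both Scr libraries. Its fitted log2 fold change in miR-27a KO was -0.54, and that of the retinoid flippase ABCA4 was -1.61, with edgeR quasi-likelihood adjusted p = 0.0615 and 0.0625. The fold of ABCC1, 1.46, was also under the threshold of 1.5. ABCC1 was called in 0 of the 7 alternatives that kept all libraries and the same thresholds. ABCA4 was called lower in 4 of these 7, as often as ABCC10 and ABCC11.

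**Figure D4:**
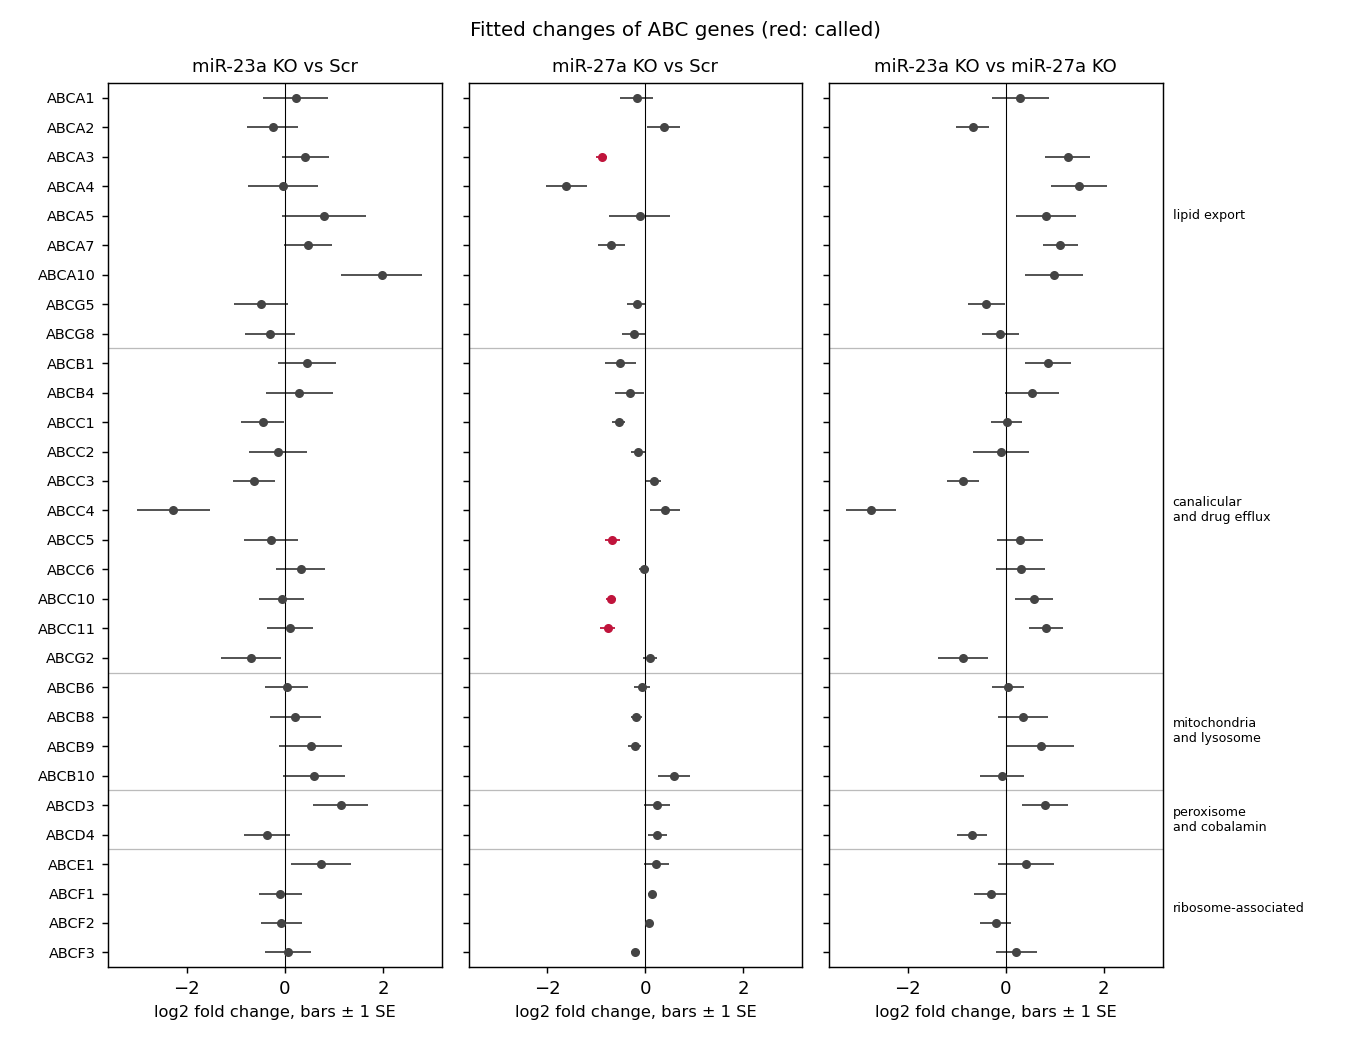
Fitted log2 fold change of 30 tested ABC members in each knockout against Scr and between the knockouts, with standard errors. Called members are in red, and the comparisons share libraries.

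By role, the 4 called members were 1 of 8 tested lipid exporters (ABCA3) and 3 of 11 tested canalicular and drug-efflux genes (ABCC5, ABCC10 and ABCC11), beside 6.74% of all genes tested. The median log2 fold change in miR-27a KO was -0.21 for lipid export, -0.32 for efflux, -0.06 for the 5 mitochondrial and lysosomal members, 0.25 for the 3 peroxisomal and cobalamin members and 0.10 for the 4 ribosome-associated members. The canalicular exporter ABCC2 and the basolateral exporter ABCC3 were not among the called members, and ABCB11 had no row. ABCC2 measured 230.8, 305.6, 118.5, 337.8, 244.4 and 243.9 CPM, and ABCC3 measured 189.4, 140.4, 107.5, 96.1, 196.0 and 175.7 CPM. For ABCC2 the miR-27a KO libraries lay between the Scr libraries, and for ABCC3 1 lay above and the other between them.

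Promoter windows of 300 bases, from 250 before to 50 after the annotated start, were available for 32 members (47 windows). A GC box (GGGCGG on either strand) was present in 23 of the 47 windows (48.9%), beside 45.0% of 35116 windows of all genes, and the NR5A2 half-site AAGGTCA was in 0 of 47, beside 3.92%. The antioxidant response core TGACNNNGC was in 11 of 47 (23.4%), beside 13.3%. For 3 of the called members 1 window is printed in full, with the motifs in capitals. ABCA3 (chr16:2340679-2340978, minus strand, GRCh38.p14) had 2 GC boxes and 1 antioxidant response core: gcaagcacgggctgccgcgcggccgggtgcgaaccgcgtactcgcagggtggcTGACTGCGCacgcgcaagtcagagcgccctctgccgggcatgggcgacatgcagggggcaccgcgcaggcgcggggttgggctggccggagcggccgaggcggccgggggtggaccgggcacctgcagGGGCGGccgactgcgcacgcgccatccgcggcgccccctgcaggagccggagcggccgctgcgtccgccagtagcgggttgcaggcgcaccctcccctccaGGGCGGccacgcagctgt. ABCC5 (chr3:184017835-184018134, minus strand, GRCh38.p14) had 1 GC box: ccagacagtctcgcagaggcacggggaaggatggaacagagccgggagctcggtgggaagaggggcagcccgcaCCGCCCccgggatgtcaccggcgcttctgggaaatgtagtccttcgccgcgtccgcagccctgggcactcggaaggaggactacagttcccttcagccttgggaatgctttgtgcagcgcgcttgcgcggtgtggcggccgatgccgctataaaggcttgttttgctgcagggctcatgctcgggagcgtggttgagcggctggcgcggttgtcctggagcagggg. ABCC10 had 2 windows, of which chr6:43427291-43427590 (plus strand, GRCh38.p14) had 0 GC boxes and 1 antioxidant response core, and chr6:43427613-43427912 (plus strand, GRCh38.p14) had 5 GC boxes: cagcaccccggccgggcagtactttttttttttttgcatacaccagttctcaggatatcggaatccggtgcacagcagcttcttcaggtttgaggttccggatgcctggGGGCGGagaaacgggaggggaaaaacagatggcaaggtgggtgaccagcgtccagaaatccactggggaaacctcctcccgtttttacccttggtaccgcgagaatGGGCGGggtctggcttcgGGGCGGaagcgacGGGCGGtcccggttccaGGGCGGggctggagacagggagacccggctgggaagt.

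In miR-23a KO against Scr, 32 members passed the filter and 0 were called higher (0% of 13786 genes tested) and 0 lower (0% of genes tested) by the edgeR quasi-likelihood test, which also called no other gene. At unadjusted p under 0.05 there was 1 lower member (ABCC4), beside 1.55% of all genes tested, and 1 higher member (ABCA10), beside 0.856%. Neither is weighed, because ABCA10 entered the test only through its level in this knockout and ABCC4 only through Scr. DESeq2 called 0 members in either direction. Both knockout libraries lay above both Scr libraries for 2 members, ABCA10 and ABCD3 (8.88% of all genes tested). ABCA10 is not weighed in this count either, because it entered through this knockout. Both lay below both Scr libraries for 6 members, ABCC1, ABCC3, ABCC4, ABCD4, ABCG2 and ABCG5 (14.9% of all genes tested). In this count ABCC4 is not weighed, because it entered only through Scr. The median log2 fold change was 0.05 over the members and 0.16 over all genes tested, and over the alternatives the member median lay between -0.15 and 0.15.

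ABCC4, a basolateral exporter of bile acids and cyclic nucleotides, measured 3.55, 5.27, 0.685, 1.02, 6.49 and 5.24 CPM. Both miR-23a KO libraries, with 9 and 19 counts, were well below the other 4, with no overlap. ABCC4 passed the filter only through the higher group of each comparison, so its fitted values and p-values are not weighed. The fitted value against Scr was -2.27 (SE 0.75, edgeR quasi-likelihood unadjusted p = 0.0158, adjusted p = 1.00). Between the knockouts, miR-23a KO over miR-27a KO, the fitted value was -2.75 (SE 0.51, edgeR quasi-likelihood unadjusted p = 0.00327, adjusted p = 0.166). ABCC4 carries a seed match for each miRNA, aggacacaAATGTGAccgtccat for miR-23a (chr13:95020860-95020882, minus strand, GRCh38) and acttgaagACTGTGAagttgcca for miR-27a (chr13:95021161-95021183, minus strand, GRCh38).

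ABCA10 measured 0.348, 0.406, 1.60, 1.29, 0.545 and 0.904 CPM, from 5 and 6 counts in Scr and 21 and 24 in miR-23a KO. It passed the filter only through the miR-23a KO libraries, so its fold change is not given. The peroxisomal fatty acid importer ABCD3 measured 32.1, 56.2, 57.7, 125.1, 51.03 and 54.0 CPM. Its lower miR-23a KO library was only just above the higher Scr library, and it was not called.

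The cholesterol exporter ABCA1 carries 1 miR-23a match, tagaaagcAATGTGAtggtcagg (chr9:104783103-104783125, minus strand, GRCh38), and 2 miR-27a matches, caaaaggcACTGTGAactatttt (chr9:104782016-104782038, minus strand, GRCh38) and tattaacaACTGTGAatatgaga (chr9:104781708-104781730, minus strand, GRCh38). It measured 20.9, 44.1, 17.7, 52.9, 29.7 and 28.0 CPM. The miR-27a KO libraries lay between the Scr libraries and the miR-23a KO libraries lay on either side of them, and ABCA1 was not called in either knockout.

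Of the 5 tested members with a miR-23a match, 0 were called in miR-23a KO by edgeR quasi-likelihood. The median log2 fold change of the 5, ABCA10 and ABCC4 among them, was 0.79, beside -0.03 for the 27 tested members without a match. Over all annotated genes tested it was 0.23 for the 2434 with a match and 0.15 for the 10607 without. With GC content and length offsets the member medians were 0.04 and 0.10. Of the 6 tested members with a miR-27a match, 0 were called higher and 1, ABCA3, was called lower in miR-27a KO. Of all 2116 tested genes with a miR-27a match, 93 were called higher and 134 lower, beside 372 and 770 of 10946 without a match.

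The sterol half-transporters ABCG5 and ABCG8 pair into 1 exporter and are read from opposite strands of a shared start region. ABCG5 measured 12.0, 15.2, 7.76, 10.6, 12.5 and 11.7 CPM, and ABCG8 measured 22.0, 36.0, 27.9, 17.8, 24.7 and 24.7 CPM. Neither was called in any comparison, and the ABCG5 libraries of miR-23a KO were below all others. The ABCG8 window (chr2:43838721-43839020, plus strand, GRCh38.p14), in which the 231 bases shared with the ABCG5 window (chr2:43838790-43839089, minus strand) are in capitals, reads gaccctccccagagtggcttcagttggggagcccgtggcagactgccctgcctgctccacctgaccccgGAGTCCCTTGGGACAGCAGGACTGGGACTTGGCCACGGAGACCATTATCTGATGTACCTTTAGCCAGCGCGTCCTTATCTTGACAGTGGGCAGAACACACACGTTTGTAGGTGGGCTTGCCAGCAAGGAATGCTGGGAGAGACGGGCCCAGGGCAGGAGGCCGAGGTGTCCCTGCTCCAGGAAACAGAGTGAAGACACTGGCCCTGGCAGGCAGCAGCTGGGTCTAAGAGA.

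Between the knockouts, with miR-27a KO as the reference, 32 members were tested and 0 were called higher (0% of 13841 genes) and 0 lower (0% of genes) by edgeR quasi-likelihood. DESeq2 called 0 higher and 1 lower, ABCC4 (log2 fold change -2.76), and edgeR with a replicate block and GC content and length offsets called ABCA3 (1.29) and ABCA7 (1.12) higher and ABCC4 (-2.63) lower. At unadjusted p under 0.05 edgeR had 2 higher and 2 lower members, ABCC4 among the lower, beside 4.66% and 4.06% of all genes tested. The miR-23a KO pair lay entirely above the miR-27a KO pair for 8 members (18.7% of all genes tested). It lay entirely below for 9 (20.7% of all genes tested), and the median log2 fold change was 0.30 beside 0.11 over all genes. ABCA10, among the 8, passed the filter only through miR-23a KO, and ABCC4, among the 9, only through miR-27a KO. Neither is weighed in these counts or as a call here, and the median of 0.30 includes both. The member median was 0.09 with the block and offsets and -0.01 without miR-23a KO replicate 1, so its sign turned here too. The members called lower in miR-27a KO alone had direct values of 1.26 for ABCA3, 0.57 for ABCC10, 0.82 for ABCC11 and 0.30 for ABCC5, and none of these passed the edgeR quasi-likelihood test (adjusted p = 0.550, 0.788, 0.622 and 0.908). When 1 library was left out, these values ran from 0.61 to 1.70 for ABCA3, 0.17 to 0.88 for ABCC10, 0.59 to 1.01 for ABCC11 and -0.35 to 0.73 for ABCC5, so the direction of ABCC5 turned. ABCA3 and ABCA7 thus differed between the knockouts in some analyses and not in others. The same held for ABCC4, which is not weighed. The comparisons with Scr share the Scr libraries, and the direct comparison shares a library pair with each.

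Further members with separate groups and a fold over 1.5 in some comparison were not called by the edgeR quasi-likelihood test without block or offsets. ABCA7, a phospholipid exporter, measured 59.3, 32.85, 73.2, 50.1, 28.4 and 28.9 CPM, and ABCA4 measured 9.04, 4.46, 3.73, 8.62, 2.24 and 2.17 CPM. Both were lowest in the miR-27a KO libraries, with fitted values against Scr of -0.69 and -1.61. These values depended on the Scr library kept, at -0.19 and -1.01 without Scr replicate 1 and -1.05 and -2.03 without Scr replicate 2. ABCA2, a lysosomal lipid transporter, measured 63.3, 29.6, 42.5, 32.8, 62.5 and 58.1 CPM, and ABCD4, a lysosomal cobalamin transporter, measured 52.1, 35.4, 32.3, 32.5, 50.9 and 53.4 CPM. For both genes the miR-23a KO libraries were below the miR-27a KO libraries, and for ABCA2 they lay between the Scr libraries.

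The drug exporter ABCB1 measured 19.7, 38.2, 23.6, 50.4, 21.0 and 19.8 CPM, and its neighbour on chromosome 7, the phosphatidylcholine flippase ABCB4, measured 3.90, 4.53, 3.12, 6.57, 2.91 and 3.86 CPM. Their knockout libraries overlapped the Scr libraries or lay on either side of them, apart from the miR-27a KO libraries of ABCB4, which were lower by a small margin. The ribosome-recycling factor ABCE1 measured 35.3, 59.5, 38.1, 109.6, 59.2 and 51.9 CPM. Its miR-23a KO library 2 lay far above all others while library 1 lay within the Scr range. The lysosomal peptide transporter ABCB9 measured 23.6, 24.5, 53.9, 13.9, 20.2 and 21.3 CPM, and ABCA12, with a miR-27a match, stayed at 6 counts or fewer. None of these members was called in any comparison.

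Of 12 regulators of ABC genes, 2 (NR0B2 and NR5A2) were called lower and 0 higher in miR-27a KO (6.74% and 3.52% of all genes tested). NR5A2 is not weighed in that count, which leaves NR0B2. In miR-23a KO, 0 were called (0% of all genes tested). NR5A2, a nuclear receptor that acts on bile acid and sterol genes including ABCG5 and ABCG8, had 61, 118, 130, 222, 0 and 2 counts and entered the miR-27a KO test only through Scr. Its ratio of miR-27a KO to Scr was 0.00985 (95% counting interval 0.00118 to 0.0361). Because NR5A2 passed the filter through Scr alone, its call is not weighed. NR0B2, a repressor induced by the bile acid receptor, fell by 1.01 log2 units (edgeR quasi-likelihood adjusted p = 0.00875). The bile acid receptor NR1H4, which acts on ABCC2 and ABCB4, had 114, 257, 111, 252, 414 and 473 counts and was not called (1.08, edgeR quasi-likelihood adjusted p = 0.112).

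Of 11 genes of bile acid uptake, export and synthesis, 7 were tested and 0 were called in either knockout, although all 7 fitted values were negative in miR-27a KO, with a median of -0.61, beside 49.1% of all genes tested with a negative value. The 6 canalicular scaffold and flippase genes, the 6 peroxisomal partners of ABCD3 and the 4 partners of ABCE1 had 0 calls in either knockout, beside 3.52% of all genes called higher and 6.74% lower in miR-27a KO and 0% in miR-23a KO. The antigen-peptide transporters TAP1 and TAP2, ABC proteins without an ABC symbol, were also not called, and the chloride channel CFTR, with 3 to 10 counts, was not tested.

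Hepatocyte and HepG2 markers were abundant in every library, with sums over 8 genes of 29596, 36792, 31201, 32574, 25364 and 25286 CPM. In miR-27a KO 1 of the 8 was called higher (TF, 1.25) and 3 lower (ALB -2.59, AFP -4.11 and FGB -2.05), with edgeR quasi-likelihood adjusted p = 0.0212, 0.00538, 0.00262 and 0.0212, and 0 were called in miR-23a KO. Over all genes tested, 3.52% were called higher and 6.74% lower in miR-27a KO. Blood markers summed to 2.09, 1.96, 0.381, 0.323, 2.30 and 2.05 CPM, mostly from CD14 (28, 20, 2, 3, 33 and 28 counts, not called), with HBB at 0 counts in 5 libraries and 1 count in the other, and endothelial markers to 6.05, 6.35, 3.35, 6.84, 4.24 and 5.60 CPM. The fibroblast marker COL1A1 had 0 to 2 counts, while PDGFRB had 250, 433, 392, 364, 93 and 85 counts and was called lower in miR-27a KO (-2.12, edgeR quasi-likelihood adjusted p = 0.0166). Bulk libraries cannot tell fewer cells making a transcript from less of it per cell.

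All p-values measured only the spread between libraries, and the counting interval and the detection floor cover counting error alone. The fitted biological coefficient of variation over all genes was 0.446 in the miR-23a KO comparison and 0.159 in the miR-27a KO comparison, and the power for single members was not tested. In miR-27a KO, GC content and length offsets kept the calls of ABCA3 (-0.72) and ABCC5 (-0.63), ended those of ABCC10 (-0.44) and ABCC11 (-0.66), and added ABCA4 (-1.64) lower and 1 member higher. A dispersion fitted over all 6 libraries ended the calls of ABCA3, ABCC10, ABCC11 and ABCC5, at nearly unchanged values of -0.88, -0.69, -0.76 and -0.67. ABCC6P1 is a pseudogene of ABCC6, so the ABCC6 level of 84.8, 97.1, 155.3, 65.8, 89.3 and 89.5 CPM may include reads of the pseudogene. What lowered the called members in miR-27a KO was not tested.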

How the data were processed

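The deposited value columns are named FPKM, but the deposited values behave as estimated counts (library sums are unequal and of the size of read totals, with many whole numbers), so they were rounded and tested as counts. The authors' processing notes name HISAT, StringTie, Cufflinks and GATK, and the counting settings and genome build are not given in the sources used here. Genes passed edgeR filterByExpr for each pair of groups, were scaled by the trimmed mean of M-values and tested by the edgeR 4.0.16 quasi-likelihood method in R 4.3.3 with Benjamini-Hochberg adjustment over all genes tested. A call needed adjusted p under 0.05 and a fold over 1.5.

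Alternatives, listed before the value files were opened, were DESeq2 1.42.0, median-ratio scaling, no filter, all 6 libraries in 1 fit, a replicate block, GC content and length offsets, both of these together, an adjusted p under 0.001, and leaving out each library. GENCODE 29 (GRCh38) gave transcript lengths and GC content for 17620 genes (88.0%) and all 41 members, and 3' untranslated regions for 15916 genes. RefSeq (GRCh38.p14) gave promoters and miRNAs. The fits were checked on simulated data, but no result of that check is reported or relied on here. Members were named when called, when over 1.5-fold without overlap, or as known hepatic transporters or members with seed matches. The symbol rule uses no values, but the members and gene lists were chosen with earlier results of these data known. Values of 2 tested members are not reported here.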

Additional observations from a re-analysis of the deposited data

Results flagged for a closer look

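ABCG2, an exporter of urate, porphyrins and drugs, was the only 1 of 31 members tested in both comparisons with Scr whose miR-23a KO libraries both lay below, and whose miR-27a KO libraries both lay above, both Scr libraries. It measured 15.2, 16.1, 5.56, 12.7, 16.4 and 16.9 CPM. Over all genes, 786 of 13556 (5.80%) had the knockouts on opposite sides of Scr in either order, so that 1 of 31 members (3.23%) was below the share of all genes. The direct log2 fold change of miR-23a KO over miR-27a KO was -0.86, and the edgeR quasi-likelihood test did not call it (adjusted p = 0.764). Dropping replicate 1 of miR-23a KO moved that value to -0.40, and dropping replicate 2 moved it to -1.58, where it was called. With all libraries kept, ABCG2 was not called against Scr in either knockout. For miR-23a KO the value against Scr was -0.68, and it was -0.26 with replicate 1 dropped and -1.49 with replicate 2 dropped, where it was called. With GC content and length offsets the miR-23a KO value against Scr was -1.05, and it was not called. The ABCG2 margin over Scr in miR-27a KO was small (fitted 0.09, SE 0.15). That fitted value turned to -0.11 with GC content and length offsets.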

How the results depend on the processing

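In miR-27a KO against Scr, the edgeR quasi-likelihood fit called 4 members lower and 0 higher. The lower count was 5 with DESeq2, 2 without the filter, 0 with all 6 libraries in 1 fit, 3 with GC content and length offsets, 4 with the block and offsets together, and 0 at adjusted p under 0.001, and a replicate block gave 5. The higher count was 1 with the offsets alone and 1 with block and offsets. Leaving out 1 library gave 0 to 7 members lower and 0 to 3 higher, and the lone library left in a group was assumed to vary like the other group. Of the 7 alternatives that kept all libraries and the thresholds, ABCA3 was called in 6, with log2 fold changes from -0.89 to -0.72, ABCC5 in 5, and ABCC10, ABCC11 and ABCA4 in 4 each. All calls, ABCA3 included, were lost when either miR-27a KO library was left out, although the values stayed near those above (ABCA3 -0.88 and -0.87, ABCC5 -0.64 and -0.69).

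Over all genes, against 487 higher and 931 lower, there were 304 and 588 without the filter, 3 and 61 with all 6 libraries, 703 and 783 with offsets, 755 and 816 with block and offsets, 2 and 2 at adjusted p under 0.001, and 82 to 1908 higher and 252 to 1808 lower when 1 library was left out.

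In miR-23a KO against Scr, members stayed at 0 higher and 0 lower in every alternative that kept all libraries. Leaving out 1 library gave 0 to 4 members higher and 0 to 4 lower, and the 4 and 4 appeared without replicate 2 of the knockout. Against 0 genes higher and 0 lower, DESeq2 called 4 and 59, the fit without the filter 0 and 10, all 6 libraries 0 and 3, the replicate block 7 and 62, the offsets 0 and 3, and block with offsets 1 and 10, while leaving out 1 library gave 0 to 1697 higher and 4 to 933 lower.

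In miR-23a KO against miR-27a KO, the counts of 0 members higher and 0 lower became 0 and 1 with DESeq2 and 2 (ABCA3 and ABCA7) and 1 (ABCC4) with block and offsets, and 0 to 11 higher and 0 to 9 lower when 1 library was left out. Against 0 genes higher and 0 lower, DESeq2 called 259 and 218, all 6 libraries 109 and 109, the replicate block 211 and 189, the offsets 139 and 155, and block with offsets 437 and 474, and leaving out 1 library gave 25 to 3584 higher and 47 to 3719 lower.

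The labels do not say that equal replicate numbers mark a pair, and the replicate log2 ratios of 11817 genes correlated at 0.274 (Scr with miR-23a KO), -0.011 (Scr with miR-27a KO) and 0.0281 (between the knockouts), over only 2 possible pairs. The numbers were not treated as pairs, and the block values are given for comparison alone. The cause of the GC-linked spread between miR-23a KO libraries was not tested.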
